A study of Mus musculus with 6 samples.

Results

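ADP/ATP carriers exchange ADP from the cytosol for ATP made inside the mitochondrion across the inner mitochondrial membrane, and porins, also called voltage-dependent anion channels, let ADP, ATP and other metabolites through the outer membrane. Carrier genes differ in where they are used. Slc25a4 is known for heart and skeletal muscle, the X-linked Slc25a5 for dividing cells, and Slc25a31 for the germ line, where male mice that lack it are infertile with arrest in meiosis. Among the porins, Vdac1 is the most abundant form in many somatic tissues, Vdac2 binds the cell death protein BAK, and male mice that lack Vdac3 have poorly motile sperm. The X chromosome is silenced during pachytene of male meiosis, and several X-linked genes of energy metabolism have autosomal copies that are used in the testis.

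The 3 carriers (Slc25a4, Slc25a5 and Slc25a31) and 3 porins (Vdac1, Vdac2 and Vdac3) are 6 of the 32285 genes counted, chosen by name and role with no measured value in the rule, and all 6 were found in the deposited matrices. They were measured by single-cell RNA sequencing of dissociated testes from wild-type mice, C57BL/6 in the labels and C57BL/6N in the methods. The mice were 8 weeks old and had been fed for 2 weeks, either with high-fat food (HFD) or with low-fat food (LFD), and each diet had 3 libraries. Diet was the difference between the 2 groups, and no allele or other agent was named for either. The deposited file names gave the opposite diet for all 6 libraries. The groups below follow the sample labels, so each diet difference would change its sign if the file names were right.

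Each library counted unique molecular identifiers (UMIs), which mark single captured RNA molecules, in cell barcodes, the droplet tags that stand for cells. The libraries held 5753 to 11095 barcodes and 39196921 to 95845514 UMIs, with median depths of 2155 to 3422 UMIs per barcode, and any 2 libraries shared 12 to 28 barcodes. Barcodes were given a class from the UMIs of marker genes, none of which is a carrier or porin, so these counts played no part in the classes. Of 48939 barcodes, 10600 passed for a class, and 2488 lay within 0.1 of the score at which a class was given or refused. The 8 germ cell classes held 328 to 2362 barcodes each, and the Sertoli-like, macrophage-like, and peritubular and stromal-like classes held 904, 262 and 154. Markers were highest in their own class for 4 of 6 in pachytene-like spermatocytes and for 12 of 12 in Sertoli-like barcodes, with the other classes between these shares. Later round spermatid-like barcodes had none of their own markers among their top 10 genes by fold. Peritubular and stromal-like barcodes numbered 2 in 1 library, so their values are shown without a test. Libraries labelled HFD1 and LFD1 stood apart from the other 4 by their Sertoli-like barcodes, which made up 3.79% and 4.83% of these libraries against 0.332% to 1.01% elsewhere. Elongating spermatid-like barcodes also set them apart, at 10.1% and 9.48% against 1.69% to 3.09% elsewhere.

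In the mm10 build (GRCm38), Slc25a4 lies on chromosome 8 at 46206797 to 46211284 (minus strand), Slc25a5 on chromosome X at 36795651 to 36798807 (plus strand) and Slc25a31 on chromosome 3 at 40708855 to 40726096 (plus strand). Vdac1 lies on chromosome 11 at 52360860 to 52389397 (plus strand), Vdac2 on chromosome 14 at 21825238 to 21845879 (plus strand) and Vdac3 on chromosome 8 at 22577075 to 22593813 (minus strand). All 6 are annotated as protein-coding. Processed copies of Slc25a5 exist elsewhere in the genome, and 8 annotated pseudogenes shared 24.5% of the 50-base words near its 3′ ends. None of those 8 was among the counted genes, and how reads matching several of them were placed was not analysed here. For Vdac3 this share was 18.8%, for Vdac2 8.87% and for Vdac1 1.99%, and it was 0 for Slc25a4 and Slc25a31.

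The X-linked Slc25a5 and the autosomal Slc25a31 are shown by the stretch from 150 to 31 bases before each RefSeq start (GRCm38.p6, plus strand). Capitals mark a core of the E2F motif, TCCCGC, in Slc25a5 at chrX:36795447-36795566, and the E-box CACGTG in Slc25a31 at chr3:40708721-40708840.
Slc25a5: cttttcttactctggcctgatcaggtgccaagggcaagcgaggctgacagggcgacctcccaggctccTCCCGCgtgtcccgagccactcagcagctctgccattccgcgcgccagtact
Slc25a31: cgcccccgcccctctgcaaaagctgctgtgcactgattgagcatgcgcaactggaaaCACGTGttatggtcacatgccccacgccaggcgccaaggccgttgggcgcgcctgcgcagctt
Windows of 300 bases around the start were matched for 4 of the 6 genes. The Slc25a5 window held 18 CpG dinucleotides and the Slc25a31 window 22, against a median of 7 over 32851 windows of the same length. On either strand, the E2F core was in 19.98% and the E-box in 7.15% of all windows, and each of these 2 genes held the E2F core somewhere in its window. These matches are descriptions of the letters and not of binding.

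Slc25a31 was the main carrier transcript of the germ line and was highest at the entry to meiosis. In CPM, the UMIs of a gene scaled to the same total in every class and library, its level in spermatogonia-like barcodes ranged over the 6 libraries from 230.0 through a median of 286.8 to 347.5, and in early meiotic prophase-like spermatocytes from 313.1 through 342.4 to 392.8. The upper libraries of the first class overlapped the lower ones of the second, and the later class was higher in 6 of 6 libraries. The rise was 1.27-fold (log2 0.35 ± 0.11 SE, edgeR quasi-likelihood test with Benjamini-Hochberg adjustment, adjusted p = 0.00483), and without HFD replicate 3 it missed the threshold (edgeR adjusted p = 0.0554).

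From there the Slc25a31 level in CPM fell. Pachytene-like spermatocytes held 120.4 to 139.8 CPM (median 132.2), with no overlap with the class before, a 2.12-fold fall (log2 -1.08 ± 0.11, edgeR adjusted p = 3.21e-13). The median depth rose at this step from 8594.5 to 31985 UMIs per barcode. Slc25a31 had 4519 UMIs in 1052 early meiotic-like and 6457 in 1149 pachytene-like barcodes. CPM thus gives its part of all RNA counted and not its amount per cell. Late spermatocytes near the meiotic divisions, at 93.8 to 134.6 CPM, overlapped pachytene-like ones and were not called (log2 -0.13 ± 0.11, edgeR adjusted p = 0.28). Falls were called again in early round spermatid-like barcodes (48.4 to 75.2 CPM, 1.87-fold lower, edgeR adjusted p = 3.72e-09) and in later round ones (25.3 to 36.4 CPM, 1.68-fold lower, edgeR adjusted p = 4.86e-07). The steepest drop came at the start of spermatid elongation, to 2.99 to 11.7 CPM, which was 3.52-fold lower on the scaled counts (log2 -1.81 ± 0.14, edgeR adjusted p = 1.16e-16). Elongating spermatid-like barcodes, at 6.23 to 17.2 CPM, were 3.08-fold higher again on the scaled counts and higher in CPM in 6 of 6 libraries (log2 1.62 ± 0.16, edgeR adjusted p = 1.22e-12). Without scaling factors this log2 difference was 0.83 (edgeR adjusted p = 0.000146). The 2 classes held 206 UMIs of Slc25a31 in 799 barcodes and 384 in 2362 barcodes, at median depths of 39810 and 11234.5 UMIs. How much of these counts was free RNA taken up by droplets was not tested.

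**Figure D1:**
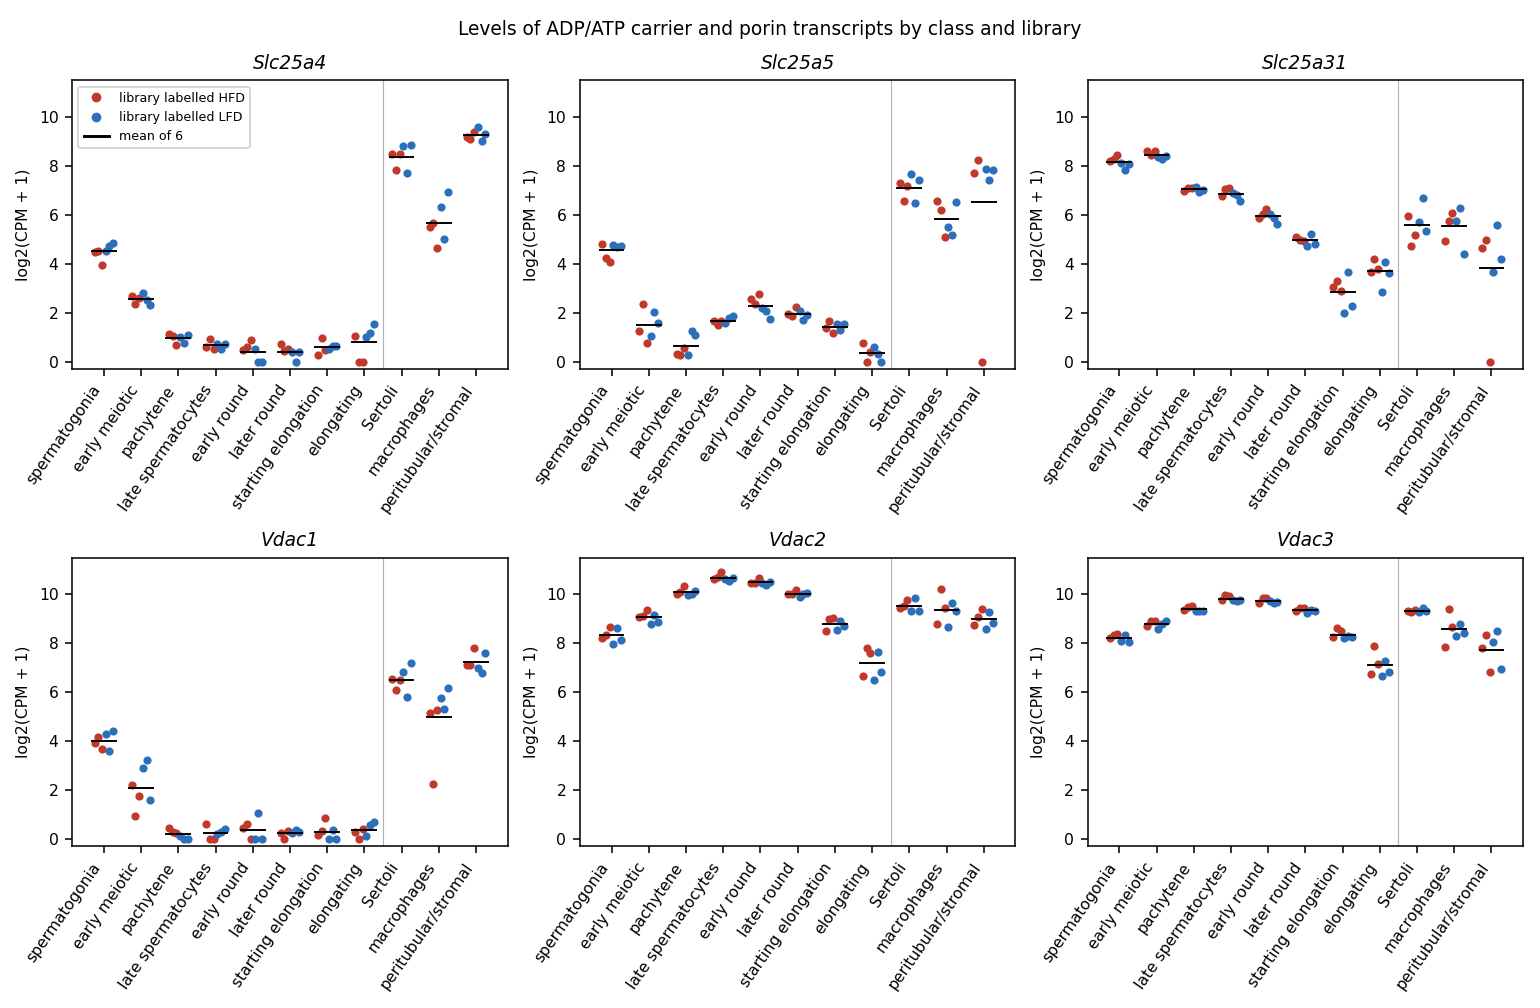
Level of each carrier and porin as log2(CPM + 1) on the vertical axis, by class on the horizontal axis, with germ cell classes left and somatic classes right of the grey line. Points are the 6 libraries, red labelled HFD and blue labelled LFD, and black lines are their means. Slc25a31 peaked at a mean of 353 CPM in early meiotic-like spermatocytes, Vdac2 and Vdac3 peaked in late spermatocytes, and Slc25a4, Slc25a5 and Vdac1 were highest in somatic classes.

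Slc25a4 and Slc25a5, the carriers of somatic cells, were at similar and lower levels in spermatogonia-like barcodes. Slc25a4 ranged there from 14.5 through a median of 22.2 to 27.6 CPM, and Slc25a5 from 15.9 through 25.1 to 27.2 CPM. Both then fell in early meiotic prophase-like spermatocytes, Slc25a4 to a mean of 4.86 ± 0.759 CPM (SD, n = 6) and Slc25a5 to 2.05 ± 1.31. For neither gene did the classes overlap. The falls were 4.18-fold for Slc25a4 (log2 -2.06 ± 0.23, edgeR adjusted p = 3.33e-11) and 10.3-fold for Slc25a5 (log2 -3.37 ± 0.28, edgeR adjusted p = 5.44e-15). The Slc25a5 value was log2 -3.96 without HFD replicate 2 and -5.11 in barcodes of at least 10000 UMIs.

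In pachytene-like spermatocytes Slc25a4 stood at 0.942 ± 0.249 CPM and Slc25a5 at 0.602 ± 0.514, and both falls were called (log2 -2.03 ± 0.30 and -1.97 ± 0.46, edgeR adjusted p = 3.06e-08 and 0.000158). In barcodes of at least 10000 UMIs the fall of Slc25a5 was not called (log2 -0.94, edgeR adjusted p = 0.248). Both rest on few molecules, since pachytene-like barcodes held 47 UMIs of Slc25a4 and 20 of Slc25a5 in all. Slc25a5 then rose in late spermatocytes to 2.20 ± 0.297 CPM (59 UMIs, log2 2.34 ± 0.38, edgeR adjusted p = 3.75e-07), with log2 3.50 under the stricter class score and 3.09 in barcodes of at least 10000 UMIs. Its next rise, to 2.30 to 5.82 CPM in early round spermatid-like barcodes, was called (log2 0.95 ± 0.33, edgeR adjusted p = 0.0134) but was lost without HFD replicate 1 or without HFD replicate 3 (edgeR adjusted p = 0.0514 and 0.0733), and also under the stricter score and without the 5% of barcodes with the most UMIs (0.235 and 0.0881). The mean of Slc25a5 then went to 2.91 CPM in later round spermatid-like barcodes and 1.71 CPM at the start of elongation, with neither step called. The second was called lower without the filter on low counts (log2 -0.58, edgeR adjusted p = 0.0371) and without scaling factors (log2 -0.79, edgeR adjusted p = 0.00364). Slc25a4 showed no rise like that of Slc25a5 in late spermatocytes. It stayed between 0.346 and 0.609 CPM on average from late spermatocytes to the start of elongation, with no contrast called. In elongating spermatid-like barcodes it was listed at 0 in 2 libraries and at 1.00 to 1.88 CPM in the other 4, and its call there (log2 1.77 ± 0.44, edgeR adjusted p = 0.000399) was lost without scaling factors (edgeR adjusted p = 0.0577). Slc25a5 stood at 0.298 ± 0.279 CPM in the same class, a fall called by a narrow margin (17 UMIs, log2 -0.97 ± 0.43, edgeR adjusted p = 0.0456) and lost without HFD replicate 2, LFD replicate 1 or LFD replicate 3 (edgeR adjusted p = 0.0552, 0.0698 and 0.104). It was also lost by DESeq2 (adjusted p = 0.0856), without the filter on low counts (0.0615) and without the 5% of barcodes with the most UMIs (0.214). It was larger without scaling factors (log2 -1.79, edgeR adjusted p = 9.63e-05) and in barcodes of at least 10000 UMIs (-1.89).

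As a share of the UMIs of the 3 carriers, Slc25a31 made up 86.2% ± 3.56 (SD, n = 6) in spermatogonia-like barcodes, with Slc25a4 at 6.79% and Slc25a5 at 6.98%. The Slc25a31 share was 98.1% ± 0.390 in early meiotic-like and 98.8% ± 0.409 in pachytene-like spermatocytes, so at pachytene the carrier UMIs were nearly all of 1 gene. It was then 97.6%, 93.5% and 90.1% in late spermatocytes, early round and later round spermatid-like barcodes, 72.5% ± 11.8 at the start of elongation and 90.3% ± 7.43 in elongating ones. How much free RNA the spermatid counts held was not tested. All 6 libraries moved the same way in each of the 7 steps between neighbouring classes, with p = 0.031 by an exact two-sided sign-flip test, the smallest it can give with 6 libraries, and 0.0386 after adjustment over 21 carrier shares. A UMI is counted once whatever the transcript's length, so shares compare captured molecules, though capture can differ between genes.

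**Figure D2:**
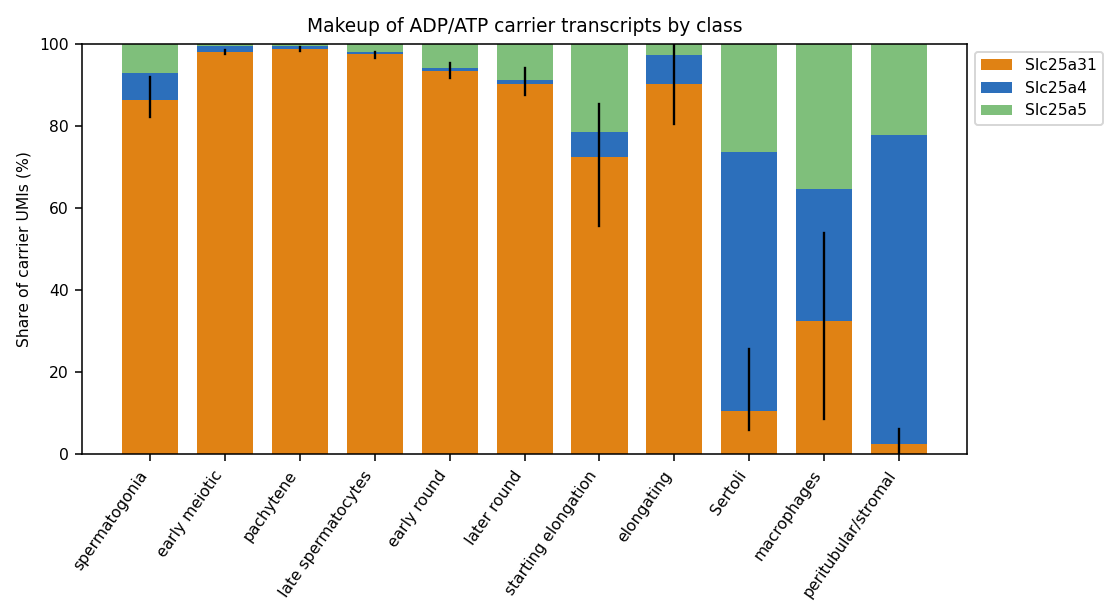
Makeup of carrier UMIs in percent (vertical axis) by class (horizontal axis), as stacked means of the 6 libraries, with black lines for the range of the Slc25a31 share. Slc25a31 held 72.5% to 98.8% on average in germ cell classes and 2.65% to 32.4% in somatic classes, where it could not be told apart from free RNA.

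The 2 somatic carriers were not spread evenly over spermatogonia-like barcodes. In a split chosen after the values were seen, and given without a test, 148 of these barcodes held a UMI of Gfra1, Zbtb16 or Nanos3, which mark stem and progenitor cells, and none of Stra8, a gene switched on by retinoic acid. Slc25a4 stood there at 25.5 to 68.2 CPM and Slc25a5 at 28.6 to 61.8 CPM. In the 209 barcodes with Stra8 and none of these markers, Slc25a4 stood at 0 to 17.6 CPM and Slc25a5 at 0 to 14.1 CPM, so neither gene's ranges overlapped. The 140 barcodes with both kinds of UMI lay between, with means of 27.1 CPM for Slc25a4 and 26.4 CPM for Slc25a5. The other 196 barcodes, with neither kind, were about as low as the Stra8 group, at 0 to 9.66 CPM for Slc25a4 and 0 to 18.4 CPM for Slc25a5. Slc25a31 averaged 271 ± 41.5, 310 ± 47.5 and 284 ± 29.6 CPM in the first, both-marker and Stra8 groups and 277 ± 67.3 CPM in the one with neither, with overlapping ranges. The split did follow differentiation by another gene, since Kit averaged 41.3 CPM in the first group and 162 CPM in the Stra8 group. Carriers also met in single barcodes: of 203 spermatogonia-like barcodes with a UMI of Slc25a4 or Slc25a5, 187 (92.1%) had one of Slc25a31, which 88.3% of all barcodes in the class had. Barcodes with a somatic carrier were deeper, with a median of 14254 UMIs against 10374.

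Vdac2 and Vdac3 were the porins of the germ line. Vdac2 ranged from 250.6 through a median of 309.5 to 405.6 CPM in spermatogonia-like barcodes and from 1496 through 1601 to 1932 CPM in late spermatocytes. No library of the first class came near the lowest of the second. On the way it rose 1.73-fold, 2.60-fold and 1.55-fold in early meiotic-like, pachytene-like and late spermatocytes (log2 0.79 ± 0.10, 1.38 ± 0.10 and 0.63 ± 0.10, edgeR adjusted p = 3.57e-09, 1.74e-17 and 2.01e-07). Vdac3, at 263.7 through 308.4 to 332.9 CPM in spermatogonia-like barcodes and 854.6 through 883.1 to 997.6 CPM in late spermatocytes, rose in the same 3 steps by 1.53-fold, 1.92-fold and 1.40-fold (log2 0.61 ± 0.08, 0.94 ± 0.08 and 0.48 ± 0.08, edgeR adjusted p = 1.25e-08, 6.43e-15 and 7.19e-07).

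In round spermatid-like barcodes both porins held much of this level. Vdac2 averaged 1442 ± 89.9 CPM in early round and 1047 ± 67.0 CPM in later round ones, and Vdac3 853 ± 49.1 and 653 ± 33.7 CPM. None of these 4 steps was called (edgeR adjusted p = 0.128 to 0.423). DESeq2 called both steps to early round spermatids lower (log2 -0.29 for Vdac2 and -0.20 for Vdac3, DESeq2 adjusted p = 0.0030 and 0.00145), and without scaling factors both steps to later round spermatids were called lower (log2 -0.46 for Vdac2 and -0.39 for Vdac3, edgeR adjusted p = 0.000175 and 0.000163). Both then fell at the start of elongation, Vdac2 to 366.8 through 447.5 to 526.5 CPM and Vdac3 to 293.4 through 310.0 to 395.7 CPM (log2 -0.86 ± 0.10 and -0.60 ± 0.08, edgeR adjusted p = 9.38e-11 and 4.06e-09). They fell further in elongating spermatid-like barcodes, to means of 154 ± 58.8 and 142 ± 50.6 CPM (log2 -0.85 ± 0.10 and -0.51 ± 0.08, edgeR adjusted p = 2.89e-10 and 4.21e-07), and by log2 -1.58 and -1.24 without scaling factors. In CPM, Slc25a31 thus fell at pachytene, a step at which both porins rose.

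Vdac1 behaved like the somatic carriers. It ranged from 11.3 through 15.7 to 20.4 CPM in spermatogonia-like barcodes and fell 3.69-fold in early meiotic-like spermatocytes (log2 -1.88 ± 0.30, edgeR adjusted p = 3.49e-07). A further 13.1-fold fall followed in pachytene-like ones (log2 -3.71 ± 0.48, edgeR adjusted p = 1.25e-09), where 10 UMIs were counted in 1149 barcodes. Without HFD replicate 1 this value was log2 -4.33. From then on its mean lay between 0.147 and 0.329 CPM, with at least 1 library at 0 in each class and no step called.

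The ratio between the 2 germ cell porins shifted as well. Vdac2 made up 50.4% ± 3.12 of Vdac UMIs in spermatogonia-like barcodes, 54.4% ± 2.80 in early meiotic-like, 62.0% ± 1.39 in pachytene-like and 64.3% ± 1.30 in late spermatocytes. It then went back through 62.8%, 61.6% and 57.4% to 51.4% ± 4.56 in elongating ones. The first step was higher in 5 of 6 libraries and did not pass (exact sign-flip p = 0.0625, adjusted 0.0875), and the other 6 steps moved the same way in 6 of 6 libraries (exact sign-flip p = 0.031, adjusted 0.0469 over 21 porin shares). In spermatogonia-like and early meiotic-like barcodes, Vdac2 was at 1.55 and 1.93 times a level scaled for free RNA, described below. Vdac3 was at 2.40 and 2.51 times. Part of these counts cannot be told apart from free RNA, which limits the shares of both classes and the steps to and from them. Vdac1 was 2.52% of Vdac UMIs in spermatogonia-like and 0.00830% in pachytene-like barcodes.

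Over the 7 steps, 26 of 42 tests of a carrier or porin were called, 11 higher and 15 lower, and 21 were called with the same sign in 13 of 13 settings. Most genes changed between these classes too. All 6 members were called at the step to early meiotic-like spermatocytes, where 57.3% of 15313 genes were, and at the step to pachytene, where 76.9% were. In the order of the later steps, 3, 2, 1, 3 and 5 members were called, where 66.9%, 48.1%, 45.9%, 65.6% and 65% of genes were. By direction, 3, 2, 3, 1, 0, 0 and 2 members were higher over the 7 steps, where 27.3%, 33.1%, 31.4%, 23.2%, 27.6%, 27.8% and 35.2% of genes were, and 3, 4, 0, 1, 1, 3 and 3 were lower, where 30%, 43.9%, 35.4%, 24.9%, 18.4%, 37.8% and 29.7% were. DESeq2 called 56.6%, 77.5%, 67.5%, 53.4%, 46.2%, 63.7% and 65.5% of genes. With most genes called, these counts are not read as a result about the 6 as a group, and what the steps give is each gene's direction and size. The scaling factors matter for late steps: they raised the median log2 change of all genes by 0.33 at pachytene, 0.27 in later round spermatids, 0.39 at the start of elongation and 0.79 in elongating ones. With them 60.0%, 42.4% and 54.2% of calls in the last 3 steps were higher, and without them 39.1%, 29.1% and 19.0%. Ranked by level over 10 classes, neighbours in CPM were also set against each other by the exact sign-flip test, which cannot pass here, since its smallest p with 6 libraries became 0.0625 after adjustment over 54 comparisons. Neighbours whose libraries overlapped and were higher in fewer than 6 of 6, and so did not differ beyond their spread, included Vdac2 in pachytene-like and later round classes (1098 and 1047 CPM) and Slc25a31 in early round and Sertoli-like ones (61.4 and 52.5 CPM).

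Slc25a4, Slc25a5 and Vdac1 were higher in somatic classes than in any germ cell class by their means. Of carrier UMIs, Slc25a4 made up 63.2% in Sertoli-like and 75.2% in peritubular and stromal-like barcodes. In macrophage-like ones the mean shares of Slc25a4, Slc25a5 and Slc25a31 were 32.2%, 35.4% and 32.4%. That of Slc25a31 rested on 64 UMIs, ran from 8.70% to 53.8% over libraries and could not be told apart from free RNA. Of porin UMIs, Vdac1 made up 6.41%, 4.17% and 17.5% in Sertoli-like, macrophage-like, and peritubular and stromal-like barcodes, and Vdac2 was the most counted. Slc25a4 ranged from 209.3 through 361.0 to 456.9 CPM in Sertoli-like barcodes, from 23.7 through 46.9 to 121.7 CPM in macrophage-like ones and from 519.1 through 600.3 to 773.9 CPM in peritubular and stromal-like ones. Slc25a5 averaged 143 ± 45.5, 61.6 ± 27.7 and 190 CPM in these classes, the last with a range of 0 to 304 CPM, and Vdac1 93.6 ± 32.8, 39.8 ± 22.3 and 154 ± 43.1 CPM. Sertoli-like barcodes, which were 1.85% of all barcodes, held 49.3% of all Slc25a4 UMIs, 31.8% of those of Slc25a5 and 41.9% of those of Vdac1. Peritubular and stromal-like barcodes, 0.315% of the total, held a further 20.8%, 11.2% and 15.2%.

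Slc25a31, Vdac2 and Vdac3 were counted in somatic classes as well, and these counts were set against a rough level for the free RNA that droplets take up. The protamine and transition protein transcripts belong to spermatids, and they gave a yardstick: the profile of unassigned barcodes was scaled to the UMIs of these genes in each class. On this scale Slc25a31 in Sertoli-like barcodes, at 25.2 to 102 CPM, was at a median of 0.502 times the scaled level, Vdac2 at 0.549 times and Vdac3 at 0.868 times. In macrophage-like barcodes the 3 genes were at 0.980, 0.982 and 0.972 times. In peritubular and stromal-like barcodes Slc25a31 was at 0.575 times, Vdac2 at 1.23 times with 5 of 6 libraries above the scaled level, and Vdac3 at 1.03 times with 4 of 6 above. With this yardstick, expression of Slc25a31, Vdac2 and Vdac3 in somatic classes could not be told apart from free RNA, and it was not shown to be absent. Slc25a4, Slc25a5 and Vdac1 were at medians of 26.3 to 533 times the scaled level in the 3 somatic classes. In spermatogonia-like barcodes Slc25a31 was at 16.7 times, Vdac3 at 2.40 times and Vdac2 at 1.55 times the scaled level, and in early meiotic-like spermatocytes Vdac3 was at 2.51 and Vdac2 at 1.93 times. Part of the porin level in both classes, between which a rise was called, thus cannot be told apart from free RNA. Thinned to 2000 UMIs per barcode, 41.3% of spermatogonia-like and 10.5% of Sertoli-like barcodes had a UMI of Slc25a31, with 418 shallower Sertoli-like barcodes left out. Unthinned, these shares were 88.3% and 15.7%, at median depths of 11611 and 2106.5 UMIs.

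**Figure D3:**
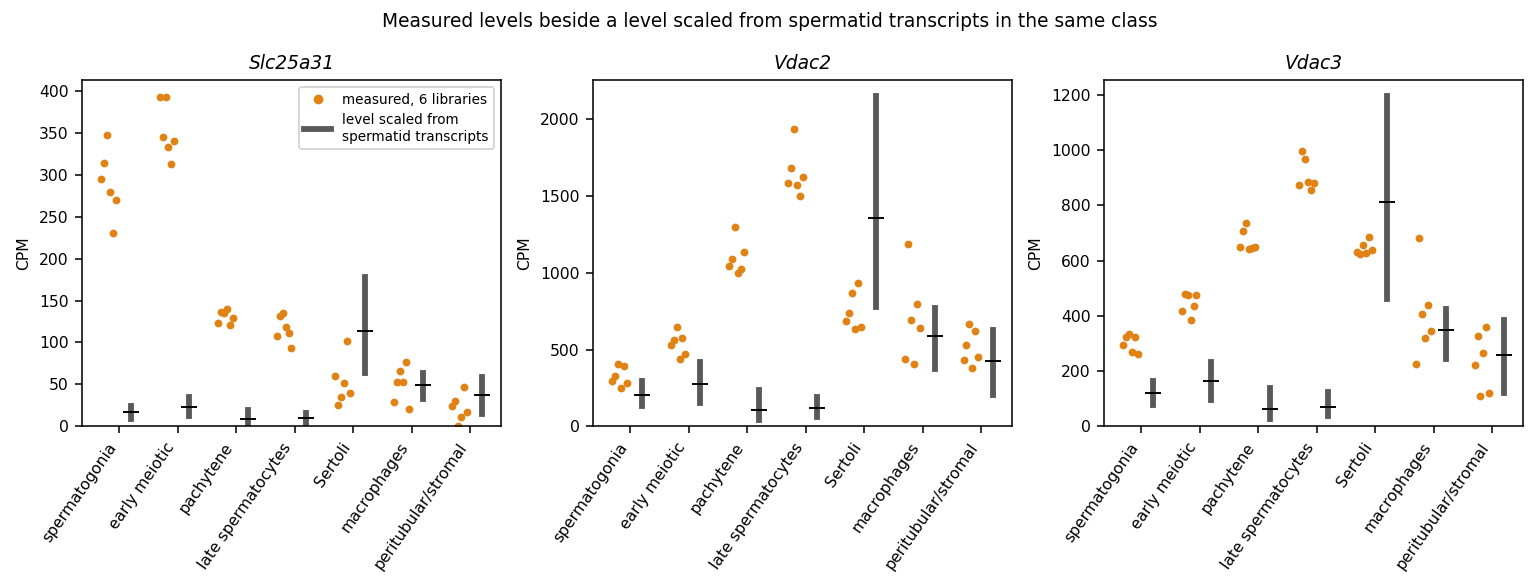
CPM of Slc25a31, Vdac2 and Vdac3 (vertical axes) by class (horizontal axis). Orange points are the 6 libraries, and grey bars with a black tick are the range and mean over libraries of the level scaled from protamine and transition protein UMIs. Slc25a31 lay above the bar in spermatogonia-like and spermatocyte-like classes, and within or below it in most libraries of the somatic classes.

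The pair of X-linked Slc25a5 and autosomal Slc25a31 was set beside 2 others in the same cells. These were the glycolytic enzyme phosphoglycerate kinase (X-linked Pgk1 and autosomal Pgk2) and a pyruvate dehydrogenase subunit (X-linked Pdha1 and autosomal Pdha2). In spermatogonia-like barcodes Slc25a31 already made up 92.5% of its pair. Pgk2 and Pdha2 made up 62.1% and 73.6% of theirs, at medians of 0.710 and 0.991 times the scaled level on the yardstick above. These 2 shares could not be told apart from free RNA and are not compared with that of Slc25a31. The same holds for the 85.4% of Pgk2 in early meiotic-like spermatocytes, at 0.738 times. There Slc25a31 made up 99.4% and Pdha2, at 4.71 times the scaled level, 98.0%. In pachytene-like spermatocytes, where Pgk2 was at 4.21 and Pdha2 at 18.5 times, the shares were 99.5% for Slc25a31, 96.6% for Pgk2 and 99.99% for Pdha2. Slc25a31 was higher than Pgk2 there by 2.90 percentage points, in 6 of 6 libraries (exact sign-flip p = 0.031, adjusted 0.0357 over 16 comparisons). The share of Slc25a31 minus that of Pdha2 was 1.45 points in early meiotic-like and -0.461 points in pachytene-like spermatocytes (exact sign-flip p = 0.031, adjusted 0.0357 for both).

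From late spermatocytes to the start of elongation, the Slc25a31 share lay below those of both other pairs. The Slc25a31 share of its pair was 98.1% in late spermatocytes, 94.0% in early round, 91.1% in later round and 77.0% in starting elongation spermatid-like barcodes, while Pgk2 stayed between 98.4% and 99.8%. The share of Slc25a31 minus that of Pgk2 was -1.69, -5.53, -8.01 and -21.3 percentage points in these 4 classes, lower in 6 of 6 libraries (exact sign-flip p = 0.031, adjusted 0.0357). Against Pdha2 the differences in the same 4 classes were -1.91, -5.99, -8.90 and -22.8 points (exact sign-flip p = 0.031, adjusted 0.0357). In elongating ones the differences of -2.45 points to Pgk2 and -2.52 points to Pdha2 did not pass (exact sign-flip p = 0.125 for both). Levels moved on both sides of the ratio, since Slc25a31 fell while Pgk2 went from 364 ± 48.6 CPM in late spermatocytes to 706 ± 83.9 at the start of elongation. All X-linked genes together made up 1.80% ± 0.160 of UMIs in spermatogonia-like barcodes, 0.963% ± 0.158 in early meiotic-like, 0.0575% ± 0.0323 in pachytene-like and 0.237% ± 0.0432 in late spermatocytes. They then came to 0.692%, 1.11% and 1.67% up to the start of elongation, and to 1.35% in elongating ones. Slc25a5 was lowest where this share was lowest, apart from elongating spermatid-like barcodes, where it was lower still.

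**Figure D4:**
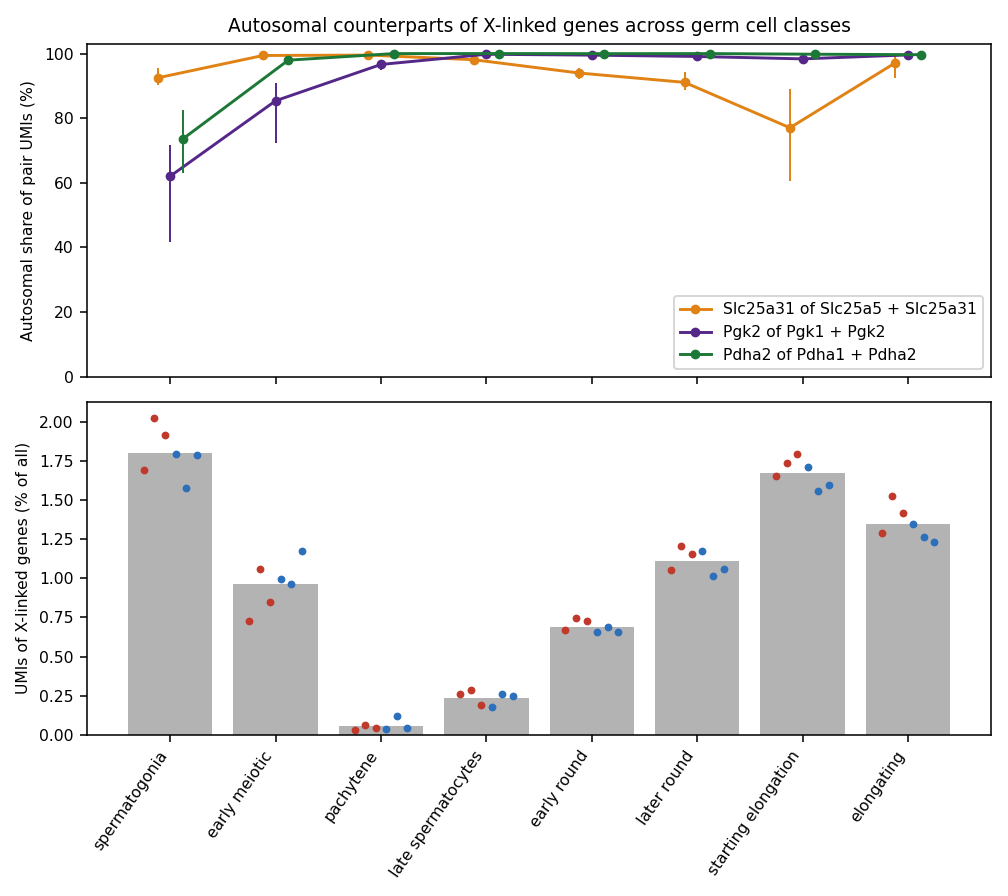
Top, share of the autosomal gene in the UMIs of 3 pairs in percent (vertical axis), as the mean with a line for the range of 6 libraries, by germ cell class (horizontal axis). The Pgk2 values of the first 2 classes and the Pdha2 value of the first could not be told apart from free RNA. Bottom, percent of all UMIs from X-linked genes, with bars for the mean and points for libraries (red labelled HFD, blue labelled LFD). The Slc25a31 share went down to 77.0% at the start of elongation, where those of Pgk2 and Pdha2 were 98.4% and 99.8%.

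Some other genes followed the members closely. Over the means of 10 classes and 11454 genes, Pearson correlations of log2(CPM + 1) are given as a description with no test, since classes share libraries and free RNA. Slc25a31 was most like Alkbh5 (r = 0.994), Top2a, a DNA topoisomerase of dividing cells (0.993), and Plekhf2 (0.989). Vdac2 was most like Rfesd (0.996), the glyoxalase gene Hagh (0.991) and Dynlt1f (0.989), and Vdac3 most like Suclg1, a subunit of a citric acid cycle enzyme (0.988), Polr1d (0.982) and Rfesd (0.982). The first genes were Arl4d, Hadh and Cenpb for Slc25a4 (0.993, 0.992 and 0.992), Ube2d1, N4bp2l1 and Casp6 for Slc25a5 (0.970, 0.969 and 0.964), and Slc48a1, Pag1 and Rap2b for Vdac1 (0.997, 0.994 and 0.992). Among the members, Slc25a4 with Vdac1 reached 0.991 and Vdac2 with Vdac3 0.980, whereas Slc25a31 stayed under 0.4 with each of the other 5 (0.163 to 0.356).

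Other genes of mitochondrial exchange changed in both directions at each step. This list held 44 inner membrane carriers, import and calcium channel genes and known partners of carriers and porins, of which 41 were tested. In the order of the steps, 12, 13, 7, 8, 10, 10 and 19 were called higher and 13, 18, 17, 14, 8, 14 and 11 lower. As a share of those tested, 17.1% to 46.3% were higher and 19.5% to 43.9% lower, beside 23.2% to 35.2% and 18.4% to 43.9% of all genes. The median log2 change of the list lay between -0.41 and 0.63, and that of all genes between -0.37 and 0.21.

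At the 2 meiotic steps, Hk2, the hexokinase that docks on porins, fell from 16.5 to 0.433 CPM in early meiotic-like spermatocytes (edgeR adjusted p = 1.58e-13), the step at which Vdac1 first fell. Slc25a28, an iron carrier, rose there from 28.9 to 67.3 CPM (edgeR adjusted p = 2.23e-14). At pachytene the dicarboxylate carrier Slc25a10 rose from 6.58 to 33.7 CPM (edgeR adjusted p = 6.52e-19), while the coenzyme A carrier Slc25a42 fell from 16.1 to 0.361 CPM (edgeR adjusted p = 2.72e-20).

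Late spermatocytes and early round spermatids shared their largest rise. Slc25a25, which carries ATP-magnesium against phosphate and so changes the adenine nucleotide pool that ADP/ATP carriers only exchange, rose from 3.11 to 10.1 and then to 29.2 CPM (edgeR adjusted p = 2.71e-12 and 6.90e-12). Bax, a relative of BAK in cell death, fell from 5.24 to 1.39 CPM in late spermatocytes (edgeR adjusted p = 1.10e-06) but not under the stricter class score (log2 -0.40, edgeR adjusted p = 0.412). Slc25a51, the carrier of NAD, fell from 2.05 to 0.426 CPM in early round spermatids (edgeR adjusted p = 0.00218). In later round spermatids Slc25a41, a relative of Slc25a25, rose from 0.636 to 14.6 CPM (edgeR adjusted p = 4.96e-19) and Slc25a28 fell from 51.2 to 21.5 CPM (edgeR adjusted p = 1.63e-12).

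At the start of elongation, where Slc25a31 fell most, Slc25a37, an iron carrier, rose from 10.0 to 84.8 CPM, Mcu, the pore of the calcium uniporter, from 27.1 to 96.7 CPM and Slc25a41 from 14.6 to 40.2 CPM (edgeR adjusted p = 1.26e-24, 3.15e-21 and 4.71e-21). The pyruvate carrier subunit Mpc1 fell from 39.7 to 9.16 CPM and the oxoglutarate carrier Slc25a11 from 9.26 to 3.10 CPM (edgeR adjusted p = 7.97e-18 and 2.65e-09). In elongating ones Slc25a23 fell from 1.22 to 0.0285 CPM (edgeR adjusted p = 0.000179), and Ucp2, called higher, stood at 0.188 and 0.226 CPM on 5 and 15 UMIs, too few for a fold, and its call was lost without LFD replicate 1 (edgeR adjusted p = 0.57) and without scaling factors (0.11). Slc25a3, which brings in the phosphate for ATP synthesis, fell 2.30-fold in early meiotic-like spermatocytes (394 to 165 CPM, edgeR adjusted p = 3.57e-19). It was not called in the next 2 steps, though pachytene-like spermatocytes were called lower by DESeq2, without HFD replicate 1 and without scaling factors (log2 -0.20, -0.30 and -0.44, adjusted p = 0.0024, 0.0027 and 2.40e-06 with edgeR for the last 2). It rose in the 3 steps after them (log2 0.43, 0.69 and 0.44, edgeR adjusted p = 6.01e-06, 3.01e-11 and 4.19e-07) and fell 3.32-fold in elongating spermatids (edgeR adjusted p = 8.91e-25). At the start of elongation it went from 193 to 200 in CPM and was not called without scaling factors (log2 0.051, edgeR adjusted p = 0.55), where Slc25a31 fell from 30.4 to 6.80.

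Diet was compared as HFD minus LFD, to ask whether 2 weeks of feeding moved these transcripts. Over all barcodes, 0 of 6 members were called (edgeR, 0% of 20727 genes called, with 471 genes and 0 members at an unadjusted p under 0.05, and 0 calls by DESeq2). Slc25a31 stood at 76.9, 96.4 and 99.9 CPM in libraries HFD1 to HFD3 and at 72.9, 86.2 and 58.8 CPM in LFD1 to LFD3. The groups overlapped, and the difference was 1.30-fold (log2 0.38 ± 0.17, edgeR adjusted p = 0.986). Vdac2 and Vdac3 also had higher HFD means, 994 against 892 and 613 against 549 CPM (log2 0.22 ± 0.15 and 0.22 ± 0.14, edgeR adjusted p = 0.986 for both). Between HFD1 and LFD1 the log2 differences of Slc25a31, Vdac2 and Vdac3, on log2(CPM + 1), were 0.076, 0.037 and 0.021. Among the other libraries they were 0.43, 0.20 and 0.22.

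The somatic members had lower HFD means over all barcodes. Slc25a4 stood at 12.3, 2.98 and 3.59 CPM in HFD1 to HFD3 and at 11.4, 9.84 and 8.06 CPM in LFD1 to LFD3. HFD1 was the highest of the 6 and the other HFD libraries were the lowest (log2 -0.55 ± 0.47, edgeR adjusted p = 0.986). Beside it, Sertoli-like barcodes made up 3.79%, 0.332% and 0.446% of the HFD libraries and 4.83%, 0.811% and 1.01% of the LFD ones, and peritubular and stromal-like barcodes 0.644%, 0.185% and 0.0270% against 0.407%, 0.324% and 0.174%. Fewer cells of a type and less RNA per cell cannot be told apart in such sums. Between HFD1 and LFD1 the log2 difference of Slc25a4, on log2(CPM + 1), was 0.10, and among the other 4 libraries it was -1.22. Without HFD replicate 1 the fitted difference was -1.62. Within Sertoli-like barcodes it was -0.21 ± 0.33 (edgeR, not called). Vdac1 and Slc25a5 had the same 4 highest libraries in the same order, with log2 differences of -0.52 ± 0.43 and -0.27 ± 0.31.

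**Figure D5:**
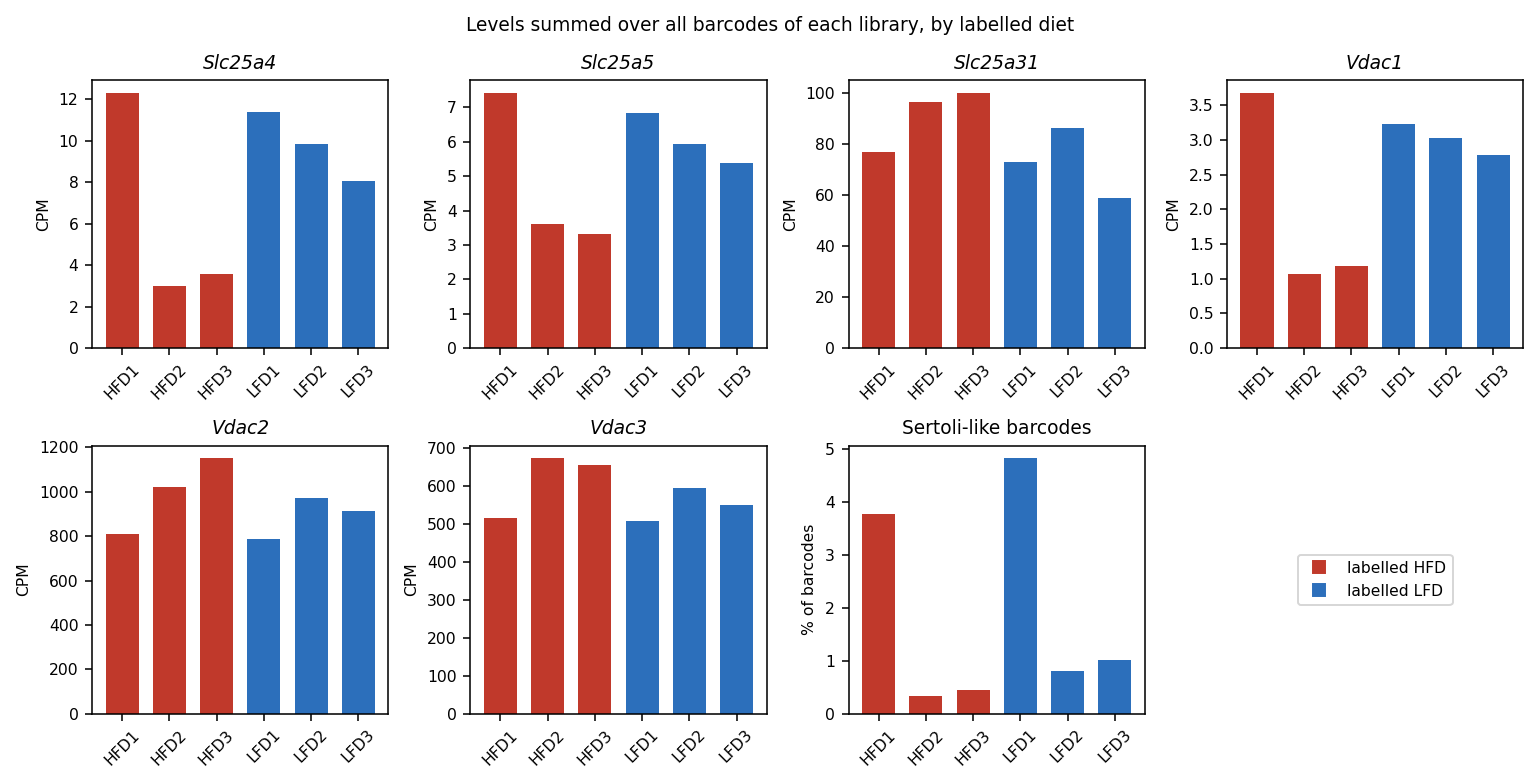
CPM of each carrier and porin summed over all barcodes (vertical axes), and Sertoli-like barcodes as percent of all, for each of the 6 libraries (horizontal axis; red labelled HFD, blue labelled LFD). Slc25a4, Slc25a5 and Vdac1 were lowest in HFD2 and HFD3, and the Sertoli-like share was lowest in the same 2 libraries, at 0.332% and 0.446%.

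Within classes, 41 tests of a member were possible after the filter on low counts and 0 were called (edgeR, with 0% of genes called in each of the 10 classes, 0 members at an unadjusted p under 0.05 and 0 members called by DESeq2). DESeq2 called 0.00938% of genes in spermatogonia-like and 0.0192% in early meiotic-like barcodes, and 0% in the other 8 classes. In Sertoli-like barcodes it gave an adjusted p to 941 genes only, where edgeR tested 8695. Slc25a5, Slc25a31 and Vdac1 had none there, so DESeq2 did not cover all 41 tests. Slc25a31, Vdac2 and Vdac3 had a higher HFD mean in 8 of 8 germ cell classes, though these share libraries and are not separate evidence. For Slc25a31 the largest log2 difference among them was 0.32 ± 0.39, at the start of elongation. In spermatogonia-like barcodes Slc25a31 stood at 294.5, 314.1 and 347.5 CPM in HFD1 to HFD3 and at 279.0, 230.0 and 269.8 CPM in LFD1 to LFD3. The 2 groups did not overlap, as for 7.03% of all genes in that class (log2 0.26 ± 0.15, edgeR adjusted p = 1.00). In early meiotic-like spermatocytes it did not overlap either, at 344.4 to 392.8 against 313.1 to 340.3 CPM, as for 11.8% of genes there (log2 0.24 ± 0.15, edgeR adjusted p = 0.925). In all, 8 of 60 pairs of member and class did not overlap. Those that passed the filter on low counts were Slc25a31 and Slc25a4 in spermatogonia-like, Slc25a31 in early meiotic-like and Vdac3 in pachytene-like barcodes. The others did not pass it: Vdac1 in pachytene-like and macrophage-like, Slc25a5 in early round and Slc25a4 in later round barcodes. Among the genes that passed that filter, 7.03%, 11.8%, 9.97%, 7.72%, 11.4%, 7.71%, 7.84% and 5.18% did not overlap in the germ cell classes in order. In Sertoli-like and macrophage-like barcodes this was 8.12% and 4.22%, and over all barcodes 6.68%. These shares thus stand beside the pairs that passed the filter, and not beside all 60. Shares within the families gave a smallest p of 0.1 between diets by the exact permutation test, which cannot go lower with 3 against 3, and a smallest adjusted p of 0.5.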

How the data were processed

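The deposited files held raw UMI counts per gene and barcode, which the authors made with Cell Ranger 6.0.1 on the mm10 (GRCm38) reference. The labels name version 2 and the methods version 3.1 of the 3′ kit. The methods give 3 mice per diet for 3 libraries per diet, and the labels tie no library to an animal.

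Marker levels were log-transformed and standardised, and a class needed a mean score of at least 0.8, a lead of 0.2 over the next class, 3 detected markers and, for germ cells, 4000 UMIs. These thresholds were chosen after UMI counts were seen. No doublets were removed, and 38339 barcodes stayed unassigned. Members and gene lists were chosen with earlier results of these data known.

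Counts were summed by class and library and tested with edgeR 4.0.16 (quasi-likelihood, TMM scaling, filterByExpr). One fit covered the 8 germ classes with library as a block, and diet was fitted per class with at least 20 barcodes in each library. Benjamini-Hochberg adjustment ran over all genes tested, with a threshold of 0.05. Members were named in full, and of the exchange list the genes with the largest called change each way, except 1 that is not reported here. DESeq2 1.42.0 was an alternative. The steps were tested on simulated data with a log2 change of 1 in 200 genes. For diet, edgeR recovered 91.5% of them over all barcodes, 99.5% in later round spermatids and 58% in spermatogonia. For the stage step to pachytene it recovered 98%. Smaller changes, such as the diet differences seen here, were not simulated.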

Additional observations from a re-analysis of the deposited data

Results flagged for a closer look

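Of 73 groups of 6 libraries checked for 1 library far from the rest, 3 were picked out, where chance picks about 1 in 20. Vdac2 in early round spermatid-like barcodes stood at 1610 CPM in HFD3 (1609.5), against 1338 to 1438 in the others. The Slc25a31 share of carrier UMIs in Sertoli-like barcodes was 25.6% (25.577) in LFD2, against 5.94% to 10.5% in the others. The Vdac2 share of Vdac UMIs in macrophage-like barcodes was 52.3% (52.273) in LFD1, against 60.6% to 63.4% in the others.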

How the results depend on the processing

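Of the 42 tests of a member between stages 26 were called, and 24 to 28 under other settings, with 24 to 27 when 1 library was left out. For the exchange list 174 calls became 160 to 186. Directions that turned were all of uncalled differences. Slc25a31 in late against pachytene-like spermatocytes (-0.13) was 0.051 by DESeq2 and 0.22 with a stricter class score. Vdac3 in early round spermatids against late spermatocytes (-0.084) was 0.022 with the stricter score, 0.0027 in barcodes of at least 10000 UMIs, and -0.090 to 0.022 with 1 library left out. Vdac3 in later against early round spermatids (-0.11) was 0.064 without the filter on low counts. Slc25a3 at pachytene (-0.10) was 0.17 without that filter and 0.069 in barcodes of at least 10000 UMIs, and in late spermatocytes (-0.12) 0.050 by DESeq2. Some shares changed their side of the threshold, and the cause was not tested. Without the 5% of barcodes with the most UMIs, the Slc25a31 share at pachytene differed by 0.811 points (exact p = 0.09375), and in elongating spermatids the Vdac2 share by -3.89 and the Vdac3 share by 3.78 points (exact p = 0.0625). With the stricter score, the Slc25a31 share differed by -2.86 points in early round (exact p = 0.09375) and 18.6 in elongating spermatids (exact p = 0.0625), and the Vdac2 share by 4.92 in early meiotic-like spermatocytes (exact p = 0.031) and -0.766 in later round spermatids (exact p = 0.0625). The replicate numbers were not taken to pair libraries, since same-numbered HFD and LFD libraries correlated at 0.575, -0.036 and 0.107 over 8328 genes, and with the replicate block 0 members were called between diets, as without it. The planned minimum on UMIs per barcode removed none, since the shallowest held 1221. The alternatives with 10000 UMIs, without scaling factors and with split spermatogonia were chosen after seeing the data. Genes under about 50 UMIs in a class limit what the late stages of Slc25a4, Slc25a5 and Vdac1 can show.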
